A study of Mus musculus with 12 samples.

Results

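The genes described here are 10 that encode fibrillar and matricellular components of the extracellular matrix. They are Col1a1, Col3a1, Eln, Fn1, Tnc, Postn, Vtn, Lum, Dcn and Fbln1. They were chosen by symbol, and every probe set annotated with 1 of these symbols alone was taken, which gave 19 of the 45037 probe sets on the array. A log2 signal filter described with the processing kept 18 of the 19, and each gene was read from its probe set with the highest mean, so all 10 stood among the 12309 genes tested. The other probe sets of a gene served as a check.

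The data are Affymetrix arrays of whole lung RNA from 12 male C57BL/6 mice aged 8 to 12 weeks, with 3 arrays in each of 4 groups. The groups were nmMLCK-/- mice (the knockout, KO) with ventilator-induced lung injury (VILI), KO mice under spontaneous breathing (SB), wild-type (WT) mice with VILI, and WT mice under SB. Mylk encodes myosin light chain kinase, an enzyme that drives contraction of the cell's actomyosin, and nmMLCK is its longer, non-muscle form. Mice with VILI were ventilated for 4 h at 65 breaths per min, without positive pressure at the end of expiration (0 cm H2O). Labels of the samples give a tidal volume of 40 ml/kg, while the text of the series gives 30 ml/kg. The SB mice were not ventilated, so a VILI difference covers ventilation and everything that goes with it. The labels describe neither the allele nor the tissue in which it acts. The series text counts the samples of a group as animals, and the p-values measure the spread between them.

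Fibrillar collagens form the tensile fibres of the lung interstitium, and elastin gives the alveolar wall its recoil. Small leucine-rich proteoglycans such as decorin and lumican bind collagen fibrils and control their spacing. Matricellular proteins such as tenascin C and periostin sit in the same matrix but act mainly as signals to cells, and several are known to be made anew in injured or remodelling tissue. Fibronectin and vitronectin are adhesive glycoproteins that integrins bind, and both also circulate in plasma.

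Promoter sequence was found for 5 of the 10 genes in RefSeq (GRCm38.p6), and the 100 bases before the annotated start are shown for each. These 5 were set by availability and not by response, and none was found for Col1a1, Eln, Fn1, Lum or Dcn. Capitals mark TATAAA or GGGCGG on either strand. The windows are Tnc at chr4:64046937-64047036 (minus strand), Col3a1 at chr1:45311438-45311537 (plus strand), Postn at chr3:54361007-54361106 (plus strand), Vtn at chr11:78499020-78499119 (plus strand) and Fbln1 at chr15:85205908-85206007 (plus strand). Tnc, Postn and Fbln1 have 2 annotated starts each, and the one further downstream was used.
Tnc: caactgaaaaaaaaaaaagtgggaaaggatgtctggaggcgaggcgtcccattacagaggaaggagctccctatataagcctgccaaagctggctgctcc
Col3a1: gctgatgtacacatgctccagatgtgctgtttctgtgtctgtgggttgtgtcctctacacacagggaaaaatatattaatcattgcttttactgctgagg
Postn: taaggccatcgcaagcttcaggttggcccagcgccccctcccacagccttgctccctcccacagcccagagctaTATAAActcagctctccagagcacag
Vtn: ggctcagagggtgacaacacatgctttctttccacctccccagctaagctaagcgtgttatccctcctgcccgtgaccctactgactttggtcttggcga
Fbln1: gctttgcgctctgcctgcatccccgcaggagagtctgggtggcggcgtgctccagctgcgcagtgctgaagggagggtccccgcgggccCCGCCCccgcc

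A TATA box (letters TATAAA), a GC box (letters GGGCGG), the letters of a CCAAT box, and an AP-1 site (letters TGANTCA) were searched on both strands of the 250 bases before the start. The first was found in Postn, 26 bases before the start, and also in Col3a1 at 117, Tnc at 205 and Vtn at 137 and 135 bases (overlapping, on opposite strands), while 12.4% of all 32851 such windows hold it. The GC box letters were found in Fbln1, 11 bases before the start, and in Tnc at 246, and 32.7% of windows hold it. The CCAAT letters, held by 33.8% of windows, and the AP-1 site, held by 6.75%, were found in none of the 5. Only exact matches to the letters were counted, so the variant tatataag in the Tnc sequence shown was not.

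Correlations between arrays over all probe sets were 0.9806 to 0.9979, and array medians lay between 4.94 and 5.037. Alveolar type 2 markers had a summed log2 signal of 17.03 to 17.12 in KO VILI, 16.98 to 17 in KO SB, 17.05 to 17.1 in WT VILI and 17.01 to 17.13 in WT SB lungs. None of 3 Mylk probe sets passed for KO against WT under SB (limma adjusted p = 1 each) or under VILI (lowest adjusted p = 0.559), and the labels do not say which transcript they read. SB arrays were not alike. KO SB replicate 2 and WT SB replicate 3 had medians of -0.92 and -0.64 over 12 glucocorticoid response genes (log2, relative to each gene's mean), and the 4 remaining SB arrays had -0.03 to 0.35. The neutrophil marker median was 0.89 in WT SB replicate 3, against -1.99 to -1.21 in the other 5.

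The matrix genes did not move as 1 group after VILI. In the KO, Col1a1 and Tnc rose and Vtn, Lum, Dcn and Postn fell (limma, adjusted p under 0.05), which makes 2 higher and 4 lower of 10. Of all genes tested, 20.7% passed in that comparison, 8.12% higher and 12.6% lower. In the WT, Col1a1, Col3a1 and Tnc rose and none fell, against 15.4% of all genes passing, 6.34% higher and 9.03% lower. The median log2 difference of the 10 genes was -0.11 in the KO and 0.04 in the WT, where that of all genes was -0.05 in both. Averaged over both genotypes, 4 rose (Col1a1, Col3a1, Tnc and Eln) and 4 fell (Vtn, Lum, Dcn and Postn), against 36.7% of all genes. The leading probe sets of Fn1 and Fbln1 passed in none of these comparisons.

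**Figure D1:**
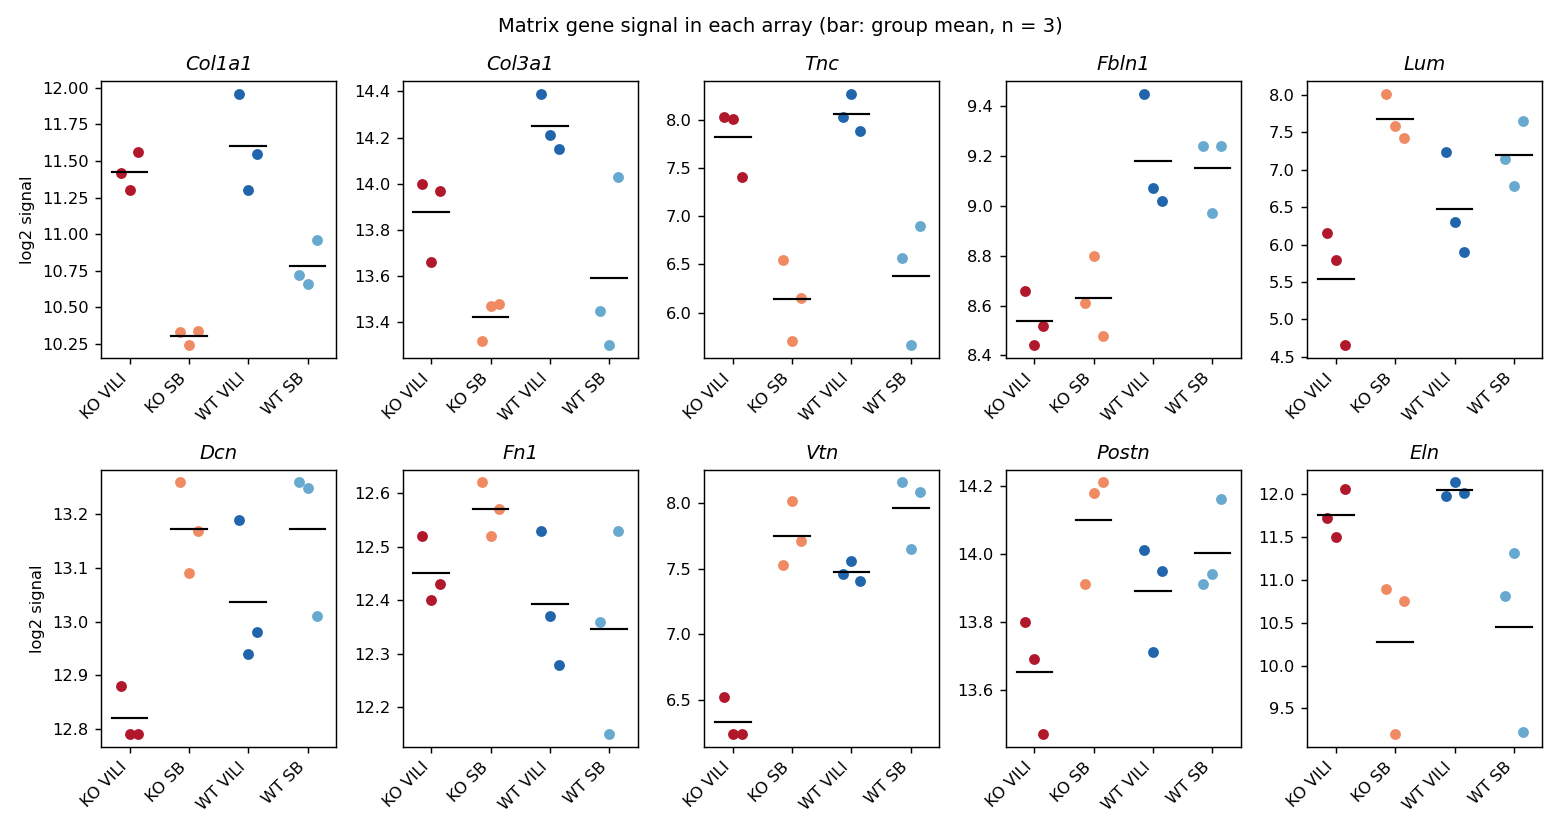
Log2 signal of the leading probe set of each of the 10 genes in every array, with KO VILI, KO SB, WT VILI and WT SB from left to right. Points are arrays, bars are group means of 3 arrays, and each panel has its own axis, which does not start at 0. Col1a1, Tnc and Eln are higher in every VILI array than in every SB array of the same genotype, and Vtn is lowest in KO VILI.

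Col1a1, the alpha 1 chain of type I collagen, had log2 signals of 11.42, 11.30 and 11.56 in KO VILI lungs, against 10.33, 10.24 and 10.34 in KO SB lungs. In WT VILI lungs they were 11.96, 11.30 and 11.55, against 10.72, 10.66 and 10.96 in WT SB lungs. In both genotypes every VILI array lay above every SB array. The log2 difference was 1.13 ± 0.16 in the KO (SE, n = 3 arrays per group), a 2.18-fold higher signal (limma adjusted p = 0.00176). It was 0.82 ± 0.16, or 1.77-fold, in the WT (adjusted p = 0.00767). Both calls held in each of 12 fits that left out 1 array. With only the 6 WT arrays in the fit, the WT call was lost (adjusted p = 0.0588).

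The second Col1a1 probe set, which is dimmer, moved further. Its signals were 8.88, 8.81 and 9.51 in KO VILI lungs, against 7.22, 6.99 and 7.01 in KO SB lungs. They were 9.36, 9.21 and 8.99 in WT VILI lungs, against 7.54, 7.45 and 7.94 in WT SB lungs. The log2 difference was 1.99 ± 0.20 in the KO (adjusted p over all probe sets = 0.000551) and 1.54 ± 0.20 in the WT (adjusted p = 0.00196). Direction and call were thus shared by both probe sets, and the size was not. Col1a2, the alpha 2 chain of type I collagen, overlapped between VILI and SB in both genotypes, and was named after its values were seen. It had 13.38, 13.20 and 13.74 in KO VILI lungs, against 13.48, 13.44 and 13.38 in KO SB lungs. WT VILI lungs had 13.89, 13.72 and 13.62, against 13.64, 13.40 and 13.75 in WT SB lungs.

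Col3a1, the single chain of type III collagen, which is laid down with type I in distensible tissue, had signals of 14.00, 13.66 and 13.97 in KO VILI lungs, against 13.32, 13.47 and 13.48 in KO SB lungs. They were 14.39, 14.21 and 14.15 in WT VILI lungs, against 13.45, 13.30 and 14.03 in WT SB lungs. The VILI arrays again lay above the SB arrays of their genotype, with WT SB replicate 3 close to them. The difference was 0.65 ± 0.17 in the WT (adjusted p = 0.0317) and 0.45 ± 0.17 in the KO, which did not pass (adjusted p = 0.0895).

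The Col3a1 calls turned on single arrays. The WT call was lost without any 1 of the 3 WT VILI arrays or of WT SB replicates 1 and 2, with differences of 0.51 to 0.70 and adjusted p up to 0.105. It was also lost without a filter (adjusted p = 0.0516) and with only the 6 WT arrays in the fit (adjusted p = 0.113). Without WT SB replicate 3 the WT difference was 0.87 (adjusted p = 0.00284), and the KO difference of 0.45 then passed (adjusted p = 0.0185). The dimmer Col3a1 probe set rose in the KO by 0.93 ± 0.17 (adjusted p = 0.00749) and in the WT by 1.31 ± 0.17 (adjusted p = 0.00196).

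Tnc encodes tenascin C, a hexameric matricellular glycoprotein that is scarce in most adult tissue and returns on injury. Its signals were 8.03, 8.01 and 7.41 in KO VILI lungs, against 6.55, 5.71 and 6.15 in KO SB lungs. In WT VILI lungs they were 8.03, 8.27 and 7.88, against 6.57, 5.66 and 6.90 in WT SB lungs. No VILI array overlapped an SB array. The log2 difference was 1.68 ± 0.32 in the KO (adjusted p = 0.00671) and 1.68 ± 0.32 in the WT (adjusted p = 0.0078), or 3.21-fold in each. Both calls held in all 12 fits without 1 array.

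The dimmer Tnc probe set rose too. It had 7.58, 7.56 and 5.13 in KO VILI lungs, against 3.42, 3.58 and 3.38 in KO SB lungs. It had 8.17, 7.94 and 7.45 in WT VILI lungs, against 3.37, 3.32 and 3.63 in WT SB lungs. In SB lungs of both genotypes it lay little above the filter level of 3.056, so the size of its difference is uncertain and is not set against that of the leading one. As fitted, it was 3.30 ± 0.53 in the KO (adjusted p = 0.00495) and 4.41 ± 0.53 in the WT (adjusted p = 0.00154). KO VILI replicate 3 was the lowest VILI array in both Tnc probe sets.

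**Figure D2:**
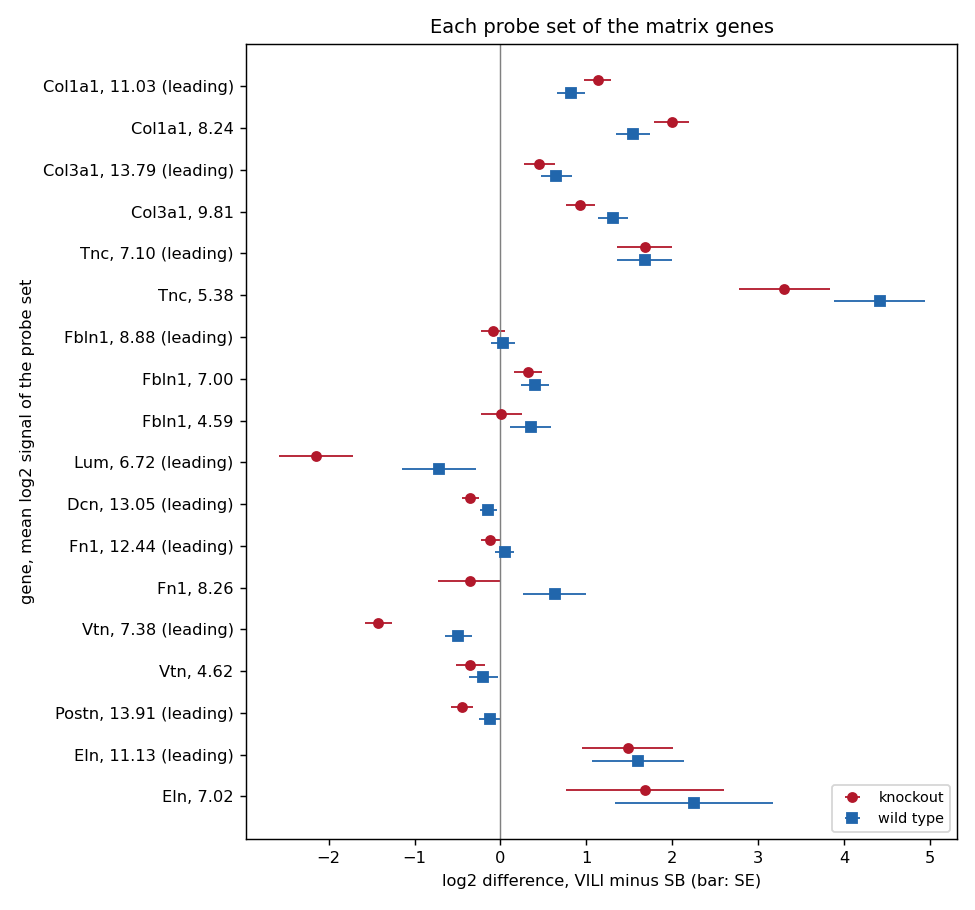
Log2 difference, VILI minus SB, of each probe set past the filter, with its standard error, in the knockout (red circles) and the wild type (blue squares). Rows are labelled with the gene and the probe set's mean log2 signal over the 12 arrays. The dimmer probe sets of Col1a1 and Col3a1 lie further from 0 than the leading ones, and that of Vtn lies nearer to 0. The dimmer Tnc probe set is near the filter level in SB lungs.

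Eln, which encodes elastin, was higher in every VILI array than in every SB array of its genotype. Signals were 11.72, 11.50 and 12.06 in KO VILI lungs, against 10.89, 9.20 and 10.75 in KO SB lungs. They were 11.98, 12.14 and 12.02 in WT VILI lungs, against 10.81, 11.31 and 9.23 in WT SB lungs. The 2 lowest values came from KO SB replicate 2 and WT SB replicate 3. The SD was 0.94 in KO SB and 1.08 in WT SB, against 0.28 in KO VILI and 0.08 in WT VILI.

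The Eln difference was 1.48 ± 0.53 in the KO (adjusted p = 0.0717) and 1.60 ± 0.53 in the WT (adjusted p = 0.0667), neither of which passed. The mean of both genotypes did, at 1.54 ± 0.37 (adjusted p = 0.00994). Without KO SB replicate 2 the KO difference was 0.94 (adjusted p = 0.233), and the WT difference of 1.60 then passed (adjusted p = 0.0335). Without WT SB replicate 3 the WT difference was 0.99 (adjusted p = 0.164), and the KO difference of 1.48 passed (adjusted p = 0.0209). Without WT SB replicate 2 the WT difference was 2.03 (adjusted p = 0.032). With KO SB replicate 2 and WT SB replicate 3 both left out, Eln rose by 0.94 in the KO (adjusted p = 0.0109) and by 0.99 in the WT (adjusted p = 0.00858), with a mean of 0.96 (adjusted p = 0.000926). These arrays held the 2 lowest Eln values, so leaving out 1 or both narrows the SB spread in the fit. The adjusted p-values of these fits are therefore not taken as calls of Eln in either genotype. The size of the Eln difference thus moved with these arrays, and its direction did not.

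The same arrays were low for the dimmer Eln probe set, with 3.94 in KO SB replicate 2 and 4.05 in WT SB replicate 3. The other 4 SB arrays had 6.78 to 7.47 and the VILI arrays 7.26 to 8.55. Lox, which encodes lysyl oxidase, the enzyme that cross-links elastin and collagen, was also lowest there, at 10.08 and 9.84. Lox had 11.15 to 11.78 in the 4 remaining SB arrays and 11.58 to 12.34 in VILI lungs. The glucocorticoid response medians given above were low in the same arrays. Their part in the Eln values was not tested.

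**Figure D3:**
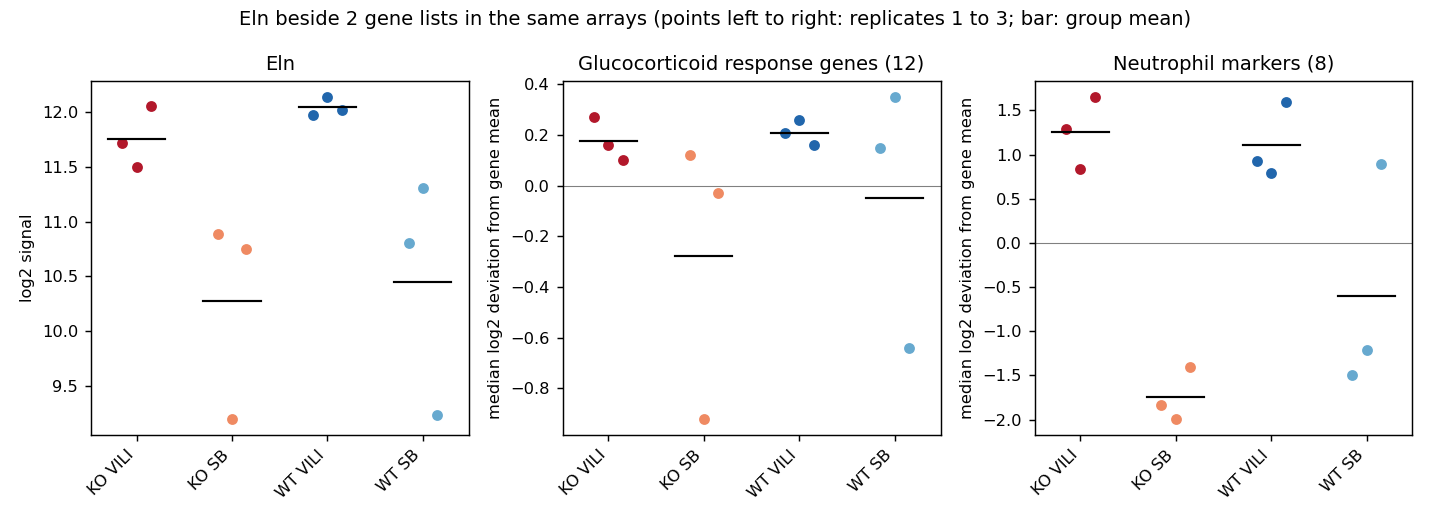
Log2 signal of Eln (left), the median deviation of 12 glucocorticoid response genes from their means (middle) and that of 8 neutrophil markers (right), by array, with KO VILI, KO SB, WT VILI and WT SB from left to right. Points run from replicate 1 to 3 within a group, and bars are group means. KO SB replicate 2 and WT SB replicate 3 are low in the left and middle panels, and WT SB replicate 3 is high in the right one.

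Vtn, which encodes vitronectin, a plasma and matrix adhesion glycoprotein known to be made mainly by the liver, was the 1 of the 10 called between the genotypes under VILI. Signals were 6.52, 6.24 and 6.24 in KO VILI lungs, against 7.53, 8.02 and 7.71 in KO SB lungs. In WT VILI lungs they were 7.46, 7.56 and 7.41, against 8.16, 7.65 and 8.09 in WT SB lungs. KO VILI arrays lay below all others, and WT VILI arrays lay just below WT SB arrays. In the KO Vtn fell by 1.42 ± 0.16 on the log2 scale, 2.68-fold (adjusted p = 0.00069), in all 12 fits without 1 array. The WT difference was -0.49 ± 0.16 and did not pass (adjusted p = 0.0642). It passed without KO SB replicate 2 (adjusted p = 0.0463) or WT SB replicate 2 (-0.65, adjusted p = 0.0186).

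The second Vtn probe set did not show this. Its signals were 4.55, 4.45 and 4.24 in KO VILI lungs, against 4.54, 4.98 and 4.78 in KO SB lungs, and these overlapped. WT VILI lungs had 4.55, 4.54 and 4.57, against 5.12, 4.55 and 4.57 in WT SB lungs. The difference was -0.35 ± 0.17 in the KO (adjusted p = 0.158) and -0.20 ± 0.17 in the WT (adjusted p = 0.486). All 6 hepatocyte markers on the array, among them Alb and Apoa1, had mean log2 signals of 1.99 to 2.57, under the filter.

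Lum encodes lumican, a keratan sulfate proteoglycan on collagen fibrils, and had 1 probe set. Its signals were 6.15, 5.80 and 4.65 in KO VILI lungs, against 8.02, 7.59 and 7.43 in KO SB lungs. In WT VILI lungs they were 7.24, 6.30 and 5.90, against 7.15, 6.79 and 7.66 in WT SB lungs. The KO groups did not overlap, and WT VILI replicate 1 lay within the WT SB range. In the KO Lum fell by 2.15 ± 0.42 on the log2 scale, 4.43-fold (adjusted p = 0.00804), in all 12 fits without 1 array. The WT difference was -0.72 ± 0.42 (adjusted p = 0.279), with -1.10 without WT VILI replicate 1 and -0.43 without WT VILI replicate 3.

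Dcn, which encodes decorin, a dermatan sulfate proteoglycan that binds collagen and TGF-beta, had 12.88, 12.79 and 12.79 in KO VILI lungs, against 13.26, 13.09 and 13.17 in KO SB lungs. It had 13.19, 12.94 and 12.98 in WT VILI lungs, against 13.26, 13.25 and 13.01 in WT SB lungs. The KO groups did not overlap and the WT groups did. In the KO Dcn fell by 0.35 ± 0.10 on the log2 scale (adjusted p = 0.0328), and the WT difference was -0.14 ± 0.10 (adjusted p = 0.385). The KO call was lost without any 1 of the 6 KO arrays (differences of -0.39 to -0.31, adjusted p of 0.0556 to 0.0988). A second Dcn probe set, at a mean of 2.74, was the 1 of 19 under the filter.

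Postn encodes periostin, a matricellular protein known for a role in collagen assembly, and had 1 probe set. Its signals were 13.80, 13.69 and 13.47 in KO VILI lungs, against 13.91, 14.18 and 14.21 in KO SB lungs. They were 14.01, 13.71 and 13.95 in WT VILI lungs, against 13.91, 13.94 and 14.16 in WT SB lungs. The KO groups were apart and the WT groups overlapped. In the KO Postn fell by 0.45 ± 0.13 on the log2 scale (adjusted p = 0.0337), and the WT difference was -0.12 ± 0.13 (adjusted p = 0.579). The KO call was lost without KO VILI replicate 2 or 3 or KO SB replicate 2 or 3 (-0.47 to -0.36, adjusted p up to 0.106), with the replicate number as a block (adjusted p = 0.0645), and with only the 6 KO arrays in the fit (adjusted p = 0.063).

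Fn1, which encodes fibronectin, did not pass in either genotype. Its signals were 12.52, 12.40 and 12.43 in KO VILI lungs, against 12.62, 12.52 and 12.57 in KO SB lungs. They were 12.53, 12.37 and 12.28 in WT VILI lungs, against 12.36, 12.15 and 12.53 in WT SB lungs. The log2 difference was -0.12 ± 0.11 in the KO (95% interval -0.36 to 0.12) and 0.05 ± 0.11 in the WT (-0.19 to 0.28). A second Fn1 probe set stood at -0.36 in the KO (adjusted p = 0.528) and at 0.63 in the WT (adjusted p = 0.308).

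Fbln1, which encodes fibulin 1, a glycoprotein of elastic fibres and basement membranes, did not pass for VILI in either genotype by any of its probe sets. Leading signals were 8.66, 8.44 and 8.52 in KO VILI lungs, against 8.61, 8.80 and 8.48 in KO SB lungs. They were 9.45, 9.07 and 9.02 in WT VILI lungs, against 9.24, 8.97 and 9.24 in WT SB lungs. All 6 KO arrays lay below all 6 WT arrays, and VILI and SB overlapped in both genotypes. The VILI difference was -0.09 ± 0.14 in the KO (95% interval -0.40 to 0.21) and 0.03 ± 0.14 in the WT (-0.28 to 0.33). The second Fbln1 probe set differed from it, at 0.32 in the KO (adjusted p over all probe sets = 0.177), where the groups did not overlap, and 0.40 in the WT (adjusted p = 0.137), where they did. Over both genotypes that probe set rose by 0.36 ± 0.11 (adjusted p = 0.0339).

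**Figure D4:**
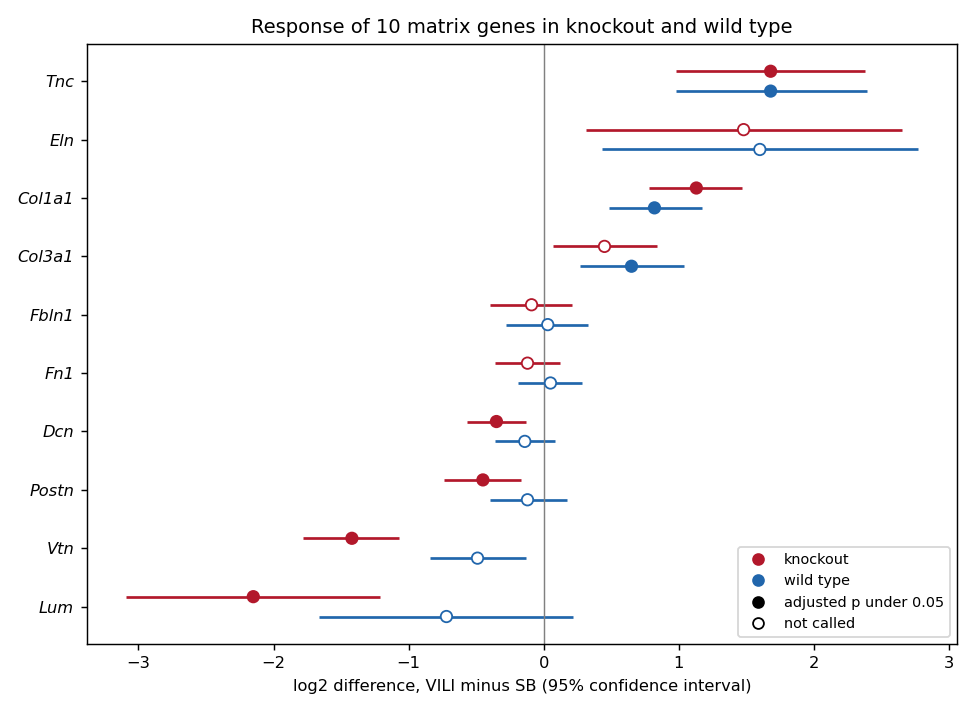
Log2 difference, VILI minus SB, with its 95% confidence interval for each of the 10 genes in the knockout (red, upper) and the wild type (blue, lower). Filled points passed at an adjusted p under 0.05 over all 12309 genes. Tnc stands at 1.68 in both genotypes, and Vtn and Lum stand further below 0 in the knockout, at -1.42 and -2.15, than in the wild type, at -0.49 and -0.72.

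Whether the VILI response differed between the genotypes was tested as an interaction. None of the 10 genes passed, and 0% of all 12309 genes did (limma adjusted p). At an unadjusted limma p under 0.05, 2 of the 10 stood out, beside 5.03% of all genes. These were Vtn, with a KO minus WT difference of responses of -0.93 ± 0.23 (unadjusted p = 0.00192, adjusted p = 0.867), and Lum, with -1.43 ± 0.60 (unadjusted p = 0.0377, adjusted p = 0.971). For Tnc the difference of responses was 0.00 ± 0.45, with a 95% interval of -1 to 0.99. For Eln it was -0.12 ± 0.75, with an interval of -1.78 to 1.54. Col1a1 was at 0.30 (-0.19 to 0.79), Col3a1 at -0.20 (-0.75 to 0.35), Postn at -0.34 (-0.74 to 0.07) and Dcn at -0.21 (-0.53 to 0.10). The calls that Lum, Vtn, Dcn and Postn had in the KO alone were therefore not shown to differ from the WT.

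Knockout and wild type were also compared within each condition. Under VILI, 1 of the 10 passed, against 0.106% of all genes (13 genes) and 0.0569% in the lower direction, and it was Vtn, at -1.14 ± 0.16 and 2.21-fold lower in the KO (adjusted p = 0.0372). This call was lost without any 1 of the 3 KO VILI or 3 WT VILI arrays, KO SB replicate 3 or WT SB replicate 1 (-1.24 to -1.10, adjusted p of 0.0558 to 0.209). It was also lost without a filter (adjusted p = 0.0787), with the mean of both probe sets (-0.64, adjusted p = 0.31) and with the replicate number as a block (adjusted p = 0.16). The second Vtn probe set alone gave -0.14 (adjusted p = 0.826). At an unadjusted limma p under 0.05 there were 3, against 8.69% of all genes. Beside Vtn, Fbln1 stood at -0.64 ± 0.14 (unadjusted p = 0.000819, adjusted p = 0.253) and Lum at -0.95 ± 0.42 (unadjusted p = 0.0487, adjusted p = 0.573), with -1.25 without KO VILI replicate 1, -0.50 without KO VILI replicate 3 and -0.57 without WT VILI replicate 1. KO arrays lay wholly below WT arrays for 4 of the 10, Col3a1, Fbln1, Dcn and Vtn, where 9.33% of all genes did.

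Under SB none of the 10 passed, against 0.0487% of all genes (6 genes). At an unadjusted limma p under 0.05 there were 2, against 3.74% of all genes, Fbln1 at -0.52 ± 0.14 (unadjusted p = 0.00331, adjusted p = 0.636) and Col1a1 at -0.48 ± 0.16 (unadjusted p = 0.011, adjusted p = 1). KO arrays lay wholly below WT arrays for the same 2, where 2.31% of all genes did. The second Fbln1 probe set stood at -0.66 under VILI and -0.59 under SB (unadjusted limma p of 0.00193 and 0.0041), and the third at -0.42 and -0.08. The second Col1a1 probe set stood at -0.57 under SB (adjusted p over all probe sets = 1, limma).

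Markers of several other cell types were counted in the same comparisons. In bulk tissue, fewer cells of a type and less RNA per cell cannot be told apart. Of 7 tested fibroblast markers (2 more, Gli1 and Fgf10, were under the filter), 3 fell and none rose in each genotype, Tcf21, Meox2 and Inmt. Of all genes, 12.6% fell in the KO and 9.03% in the WT. The mean log2 differences of these 3 over both genotypes were -1.80, -1.77 and -0.37. Pdgfra, Thy1, Npnt and Fgf18 did not pass in either genotype. After VILI their group means were lower in the KO, while in the WT Thy1 was lower and Pdgfra, Npnt and Fgf18 were higher. The list's summed log2 signal was 15.92 to 16.07 in KO VILI, 16.28 to 16.44 in KO SB, 15.94 to 16.02 in WT VILI and 16.15 to 16.33 in WT SB lungs. Without KO SB replicate 2 and WT SB replicate 3 together, 4 of the 7 fell in the KO, and in the WT 2 fell and 1 rose. The mean differences of Tcf21 and Meox2 were then -1.46 and -1.53. Dcn, Lum, Postn, Col1a1 and Col3a1 are widely used as fibroblast genes too. In the mean of both genotypes the first 3 fell, and Col1a1 and Col3a1 rose. How the falls of Tcf21, Meox2 and Inmt relate to the values of these matrix genes was not tested.

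Of 8 neutrophil markers, 7 rose in the KO and 2 in the WT after VILI, with median differences of 3.05 and 1.5. Of all genes, 8.12% rose in the KO and 6.34% in the WT. Without WT SB replicate 3, 7 rose in the WT too, with a median of 2.36. Of 10 pericyte and smooth muscle markers, 2 fell in the mean of both genotypes, Tagln and Cnn1, and none rose, where 22.6% of all genes fell. Without KO SB replicate 2 neither passed (adjusted p of 0.0562 and 0.0628). Airway cartilage markers, which bear on collagens of cartilage, were near background, with 8 of 10 under the filter and Col2a1 at 2.02. Adipocyte markers did not pass, and were high in KO SB replicate 1 and WT VILI replicate 1 (median deviations of 2.09 and 1.84, against -0.87 to 0.29 elsewhere). Of 6 heart muscle markers 1 fell in the mean of both genotypes (22.6% of all genes did), Actc1, with a list median of -0.62. Their array medians were -0.56, -0.25 and 0.34 in KO VILI, 0.88, 0.43 and -0.43 in KO SB, 0.63, -0.73 and -1.09 in WT VILI and 0.45, 0.29 and 0.05 in WT SB lungs. In WT VILI replicate 1, where both lists were high, all 10 matrix genes lay above their own means. Their median deviation there was 0.54, against -0.18 to 0.18 in the other arrays. KO SB replicate 1, where both lists were higher, had 5 of the 10 above their own means and a median deviation of -0.12. The part of these tissues in the matrix values was not tested.

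Mesothelial markers were set beside Fbln1, and 1 of 6 passed between the genotypes. Upk1b, a uroplakin of mesothelium, had 7.36, 6.83 and 7.77 in KO VILI and 6.36, 7.31 and 6.30 in KO SB lungs, against 9.66, 9.63 and 9.41 in WT VILI and 9.60, 9.41 and 9.34 in WT SB lungs. The KO minus WT difference was -2.24 ± 0.28 under VILI (adjusted p = 0.023) and -2.79 ± 0.28 under SB (adjusted p = 0.0131). The other 5 mesothelial markers did not pass between genotypes. Over all 6 markers, the median KO minus WT difference was 0.08 under VILI and -0.79 under SB. Their summed log2 signal, Upk1b included, was 11.81 to 11.89 in KO VILI and 10.46 to 11.49 in KO SB, against 11.75 to 12.25 in WT VILI and 11.86 to 12 in WT SB lungs. Msln and Lrrn4, of the same list, rose with VILI in the KO, by 1.14 and 1.00. The part of these cells in the Fbln1 difference was not tested.

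The genes around these 10 were counted from lists chosen by function, over the mean of both genotypes, in which 14.1% of all genes rose and 22.6% fell. The median of all genes was -0.05. Of 15 other collagens tested, 5 rose and 1 fell, with a median of 0.28. The basement membrane chains Col4a1 and Col4a2 rose by 0.60 ± 0.11 (adjusted p = 0.00244) and 0.49 ± 0.08 (adjusted p = 0.0016). Col5a1, which co-assembles with type I collagen, rose by 0.47 and Col4a4 by 0.33. Col8a1 was the 1 that fell, by 0.50, and was named after its value was seen. Without WT SB replicate 3, 8 of the 15 rose.

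Of 7 other small leucine-rich proteoglycans tested, 3 fell and none rose, with a median of -0.36. Prelp, Ogn and Fmod, which encode prolargin, osteoglycin and fibromodulin, fell by 0.36, 0.27 and 0.56 (adjusted p of 0.00215, 0.00704 and 0.0142). Without KO SB replicate 1, 1 of the 7 rose. Of 14 other matricellular genes, 6 rose and 1 fell, with a median of 0.18. Thbs1, which encodes thrombospondin 1, an activator of latent TGF-beta, had 12.63, 12.02 and 10.55 in KO VILI lungs, against 10.48, 9.98 and 10.06 in KO SB lungs, and 12.86, 12.17 and 12.38 in WT VILI lungs, against 11.14, 10.49 and 10.86 in WT SB lungs. It rose by 1.60 ± 0.31 (adjusted p = 0.0032). Ccn1, Tgfbi and Ccn2 rose by 0.74, 0.49 and 0.45. Ccn3, named after its value was seen, was the 1 that fell, by 0.46 (adjusted p = 0.0465), a call lost in 8 of 12 fits without 1 array, among them those without WT SB replicate 3 or KO SB replicate 2.

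Of 15 other elastic fibre genes tested, 2 rose and 1 fell, with a median of -0.06. The 2 that rose, Loxl1 and Lox, encode cross-linking oxidases. Loxl1 had 11.96, 11.82 and 12.02 in KO VILI lungs, against 10.71, 10.92 and 10.96 in KO SB lungs, and 12.26, 12.27 and 12.19 in WT VILI lungs, against 10.89, 11.05 and 11.26 in WT SB lungs. It rose by 1.07 ± 0.11 in the KO and 1.17 ± 0.11 in the WT (adjusted p of 0.000405 and 0.000295), with neither KO SB replicate 2 nor WT SB replicate 3 low. Lox rose by 1.09 ± 0.32 in the mean of both (adjusted p = 0.0232). Without KO SB replicate 2 and WT SB replicate 3 together it rose by 0.60 (adjusted p = 0.00223). These 2 arrays held its lowest values, so leaving them out also narrows the SB spread. The KO difference of Lox was 0.68 with all arrays and 0.13 without KO SB replicate 2 (adjusted p = 0.852). The WT difference was 1.5 with all arrays and 1.06 without WT SB replicate 3 (adjusted p = 0.129). Mfap2, which encodes a microfibril glycoprotein, fell by 0.78 (adjusted p = 0.00821). The count of those that rose was 1 without KO VILI replicate 1 or 2 or WT VILI replicate 3, and 3 without WT SB replicate 3. The count of those that fell was 2 without KO SB replicate 1 or WT SB replicate 2.

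Of 16 collagen processing genes, 2 rose and 1 fell, with a median of -0.06. Bmp1, the protease that removes the carboxyl propeptide of fibrillar procollagens, rose by 1.28 ± 0.30 (adjusted p = 0.00851), with its lowest values, 8.73 and 8.76, in KO SB replicate 2 and WT SB replicate 3. Without both it rose by 0.86 (adjusted p = 0.00754), with the SB spread narrowed by that choice. P4ha2, a subunit of prolyl 4-hydroxylase, rose by 0.69, or by 0.46 without both, which held its lowest values too (adjusted p = 0.00318). Plod2, a lysyl hydroxylase, fell by 0.40. The count of those that fell was 2 without KO SB replicate 1 or 2 or WT SB replicate 2. Of 20 matrix receptors, 9 rose and 2 fell, with a median of 0.22. Itgb6, a subunit of the epithelial integrin that activates TGF-beta, rose by 2.57 ± 0.22 in the KO (adjusted p = 2e-04) and 1.31 ± 0.22 in the WT (adjusted p = 0.00498). Cd44, a receptor for hyaluronan, rose by 0.63 in the mean of both, and Sdc4, a heparan sulfate coreceptor for fibronectin, by 1.63. Itga8, a mesenchymal integrin subunit, fell by 0.38, and Ddr2, a collagen receptor named after its value was seen, by 0.19. Without KO VILI replicate 1 or 3, 3 of the 20 fell. Without KO SB replicate 2 and WT SB replicate 3 together, 7 rose.

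**Figure D5:**
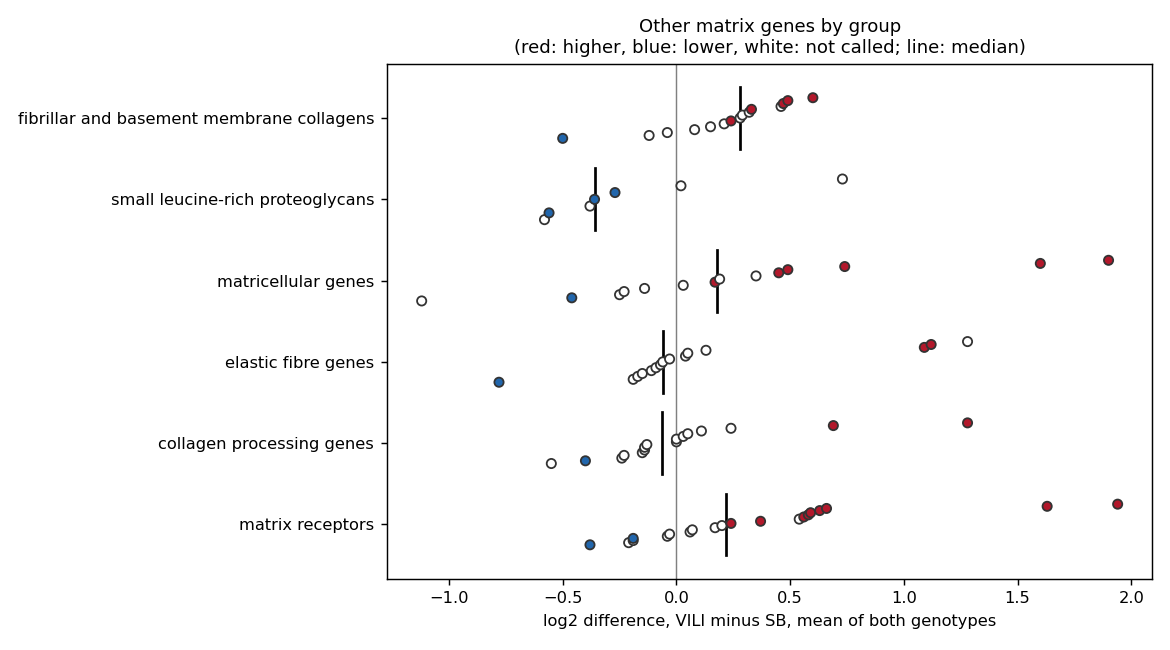
Log2 difference, VILI minus SB, averaged over both genotypes, of the other matrix genes tested, in 6 groups by function. Points are genes, red where higher and blue where lower at an adjusted p under 0.05 and white otherwise, and vertical bars are group medians. Medians run from -0.36 for small leucine-rich proteoglycans to 0.28 for collagens, and most elastic fibre and collagen processing genes lie near 0.

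The TGF-beta list held ligands and receptors as well as response genes. In the mean of both genotypes 3 of its 11 genes rose (Pmepa1, Tgfbr1 and Tgfb2) and 1 fell (Ski), with a median of 0.07. No gene of the 6 matrix lists passed in the interaction or between the genotypes under either condition.

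For each of the 10 genes, the 3 of 12308 other genes with the most similar signal over the 12 arrays were looked up by Pearson's r, given as a description since the 12 points share 4 groups. Tnc was most like Arid5a (0.991), Pvr (0.972) and Gcnt2 (0.962). Eln was most like Sphk1 (0.983), Mideas (0.983) and Egfr (0.982). Col1a1 was most like Satb1 (0.979), Syt11 (0.965) and Crispld2 (0.955), and Col3a1 like Gpr171 (0.974), Slc66a2 (0.962) and Itgb2 (0.944). None of these was another of the 10 genes.

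Postn was most like Rnf13 (0.966), Lrrc57 (0.952) and Vps33b (0.949). Lum was most like Dlat (0.964), Apoe (0.95) and Chchd3 (0.948), Vtn like Rtl8c (0.949), Car4 (0.941) and Cpq (0.939), and Dcn like Nsg1 (0.92), Slc29a1 (0.917) and Etfa (0.91). Fbln1 was most like Upk1b (0.892), Serpinh1 (0.89) and Dubr (0.868), of which Serpinh1 encodes the collagen chaperone HSP47. Fn1 was most like Pdhb (0.865), Gbp3 (0.865) and Ptges2 (0.842).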

How the data were processed

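Total RNA from 12 lungs was hybridised to Affymetrix whole-genome mouse arrays, 1 array per sample. The authors deposited log2 signals for each probe set, already normalized between arrays. Per the submitters' processing notes, MAS5 and GCRMA were used, with no version or role given. No genome build was needed for the signals. Their normalization does not show a change in the RNA content of cells.

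The platform annotation gave 1 symbol to 34945 of 45037 probe sets, several to 932 and none to 9160. Those under the 40th percentile of the means (log2 signal 3.056) were left out. Each of 12309 genes was read from its probe set with the highest mean. limma 3.58.1 in R 4.3.3 (lmFit and eBayes) fitted 4 group means over the 12 arrays. P-values were adjusted by Benjamini-Hochberg over all genes in each of 6 comparisons, and a gene was called at an adjusted p under 0.05. The fit was tested on simulated data. Median standard errors were 0.148 between 2 groups and 0.209 for the interaction, and the number of arrays limits the precision.

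Members and lists were chosen with earlier results of these data known. Named are all members, the 3 genes most like each member, and Mylk. Also named are up to 4 genes with the smallest p of each matrix list and up to 3 of each marker list. Col1a2, Col8a1, Ccn3 and Ddr2 were added after their values were seen. Lists not described with the results gave these counts in the mean of both genotypes, in which 14.1% of all genes rose and 22.6% fell. Of 7 alveolar macrophage markers 1 rose, of 5 alveolar type 2 markers 1 rose, of 5 alveolar type 1 markers 1 rose and 1 fell, of 6 endothelial markers 1 rose and 1 fell, and of 12 glucocorticoid response genes 3 rose, or 3 rose and 3 fell without KO SB replicate 2 and WT SB replicate 3. Alternatives covered normalization, filter, choice of probe set, prior, the arrays in the fit, and the replicate number as a block. For the lists, leaving out arrays was chosen after seeing the data.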

Additional observations from a re-analysis of the deposited data

How the results depend on the processing

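Each of 60 gene values was recomputed under 22 settings. Of the 1294 values, 1201 kept direction and call, 45 lost a call, 10 gained one and 38 changed sign. Col1a1 and Tnc in both genotypes, and Lum and Vtn in the KO, kept their calls in every fit without 1 array.

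The number of the 10 genes called changed as follows, and the cause was not tested. In the WT, 3 became 1 with only the 6 WT arrays in the fit, and 2 to 5 in fits without 1 array, with 5 without KO SB replicate 2. In the KO, 6 became 4 to 8, and 8 without WT SB replicate 3. Under VILI, the 1 call between genotypes became 0 without a filter, with the mean of a gene's probe sets and with the replicate block, and 0 to 1 without 1 array. The mean of both genotypes kept 6 to 8. In it the Postn call was lost with array medians set equal (-0.24), under the block (adjusted p = 0.0615), without KO SB replicate 2 and WT SB replicate 3 together (-0.22) and in 7 of 12 fits without 1 array, and the Dcn call in 3 of 12. Counts over all genes in fits without 1 array ran from 1232 (without KO VILI replicate 2) to 3301 in the KO, where 2554 were called, and from 933 (without WT SB replicate 1) to 2052 in the WT, where 1892 were called. With only the WT arrays in the fit, 845 were called in the WT, and 7191 probe sets, against 4520 genes, in the mean of both genotypes when every probe set was tested. Between genotypes under VILI the 13 calls became 2 to 19 without 1 array, 6 without a filter, 8 with the 60th-percentile filter, 2 under the block and 28 without both of those SB arrays. Under SB the 6 became 0 to 16, 0 with only the arrays compared or under the block, and 19 without both. The interaction had 0 calls, 1 without a filter, 6 without WT SB replicate 3 and 11 without both of those SB arrays, none of them 1 of the 10.

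Signs changed only for values that had not passed. With the mean of a gene's probe sets, Fbln1 stood at 0.08 in the KO, Fbln1 at 0.17 and Fn1 at 0.05 in the mean of both genotypes, and Fn1 at -0.23 between genotypes under VILI. With equal array medians, Fbln1 and Fn1 stood at 0.01 and 0.00 in the mean of both genotypes and Dcn at 0.02 under SB, or 0.01 with quantile normalization. Without both of those SB arrays, Fbln1 stood at 0.03 in the mean, and Col3a1 and Tnc at 0.02 and 0.24 between genotypes under SB. In fits without 1 array, Fbln1 ran from -0.11 to 0.11 and Fn1 from -0.05 to 0.14 in the WT, and Fbln1 from -0.10 to 0.01 and Fn1 from -0.09 to 0.01 in the mean. The difference of responses ran from -0.26 to 0.36 for Tnc, -0.66 to 0.49 for Eln and -0.20 to 0.02 for Fbln1. Between genotypes, Dcn ran from -0.08 to 0.04, Eln from -0.78 to 0.37, Col3a1 from -0.32 to 0.04 and Tnc from -0.60 to 0.02 under SB, and Col1a1 from -0.33 to 0.00 under VILI.

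The signals showed little pairing by replicate number, and the labels do not say whether the numbers pair animals. With 3 arrays per group, this cannot show that same-numbered animals were handled apart. Deviations of same-numbered arrays from their group means correlated at -0.63 to 0.40 over 18 pairs, 3 of them over 0.1, and 3 of 12 arrays correlated best with their own number. Between arrays of unlike number the range was -0.54 to 0.71. The highest value, 0.71, was that of KO SB replicate 2 with WT SB replicate 3, a likeness that the fit does not model. The block cost the Postn calls and the Vtn call between genotypes and no other call among the 10 genes. A filter at the 60th percentile removed Lum. With 3 arrays per group, differences as small as those of Dcn and Postn were near the limit of what could be called, and the signals of the dimmer Tnc probe set were near the filter level in SB lungs.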
